A study of Mus musculus with 18 samples.

Results

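Livers taken 168 h after partial hepatectomy were compared with livers taken at 48 h. The libraries were chosen by their sample titles, 2 at 168 h and 2 at 48 h, which makes 4 of the 18 libraries of the series. The series follows liver regrowth in C57BL/6 mice after 2/3 of the liver had been cut away, at 8 times from 0.5 to 168 h, with a sham operation as control. All mice of the 4 libraries had been operated on, and the groups differed in time since surgery alone as far as the labels go; the sources used here do not give the sex and age of the mice or the hour of the day. Each library was made from the RNA of 3 mice pooled into 1 sample, so that n = 2 pools per group throughout and p-values reflect pool-to-pool spread. Sham levels given beside the results are those of the 1 sham library with a complete table. Of 17180 genes listed in any table, 12199 had enough reads to be tested.

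After removal of part of the liver, the remaining hepatocytes leave quiescence, copy their DNA, divide and return to quiescence once liver mass is restored. Genes of DNA replication are switched on by E2F factors at the start of S phase. Genes of mitosis follow later, through the MuvB complex with B-MYB and FOXM1, which act at a promoter element called the CHR, and through NF-Y, which binds CCAAT boxes. Hepatocytes also make bile acids, cholesterol, plasma proteins and detoxifying enzymes, functions for which the quiescent adult liver is known.

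Library totals, counted in 1000000 reads, were 8.8 and 9.06 in the 48 h pools and 9.02 and 9.16 in the 168 h pools. Levels below are read counts of a gene per 1000000 reads of the library (CPM) after scaling with TMM factors, which were 1.18 and 1.12 at 48 h and 0.997 and 0.998 at 168 h. Changes are log2 fold changes, 168 h minus 48 h, with their SE and a p-value adjusted over all genes tested. All 8 hepatocyte markers were detected in each pool, and Alb, which encodes albumin, took 9.91% to 13% of the reads. A pool at each time stood apart from its partner. The 48 h pool 2 held more acute phase transcripts than pool 1: Serpina3n, a protease inhibitor, was at 1311 CPM in pool 1 and 3945 in pool 2. The 168 h pool 2 held more interferon-inducible transcripts: Igtp, an interferon-induced GTPase, was at 83.1 CPM in pool 1 and 395 in pool 2. Results that rest on these pools are given with and without them.

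In all, 847 genes were higher at 168 h and 836 were lower, which was 13.8% of the genes tested, 6.94% in the higher and 6.85% in the lower direction. Of these, 408 (3.34% of the genes tested) were at least 2-fold higher and 497 (4.07%) at least 2-fold lower. The median change of all genes tested was 0.02. With read totals alone in place of TMM the median was -0.19, and 468 genes were higher and 1474 lower, so that 24.1% of the calls were rises instead of 50.3%. The largest falls were almost all in genes of mitosis: of the 12 named by size, A2m and Saa3 belong to the acute phase, and the other 10 were Knstrn, Cdc20, Ccnb2, Plk1, Ccnb1, Cdca3, Cdkn3, Ube2c, Kif20a and Kif2c. The 12 largest rises named were Gbp1, Tgtp1, Gbp10, Igtp, Ifit1 and Irf7, which interferons induce, H2-Eb1, H2-Ab1, H2-Aa and Cd74 of antigen presentation, Cyp8b1 of bile acid synthesis, and Csad, an enzyme of taurine synthesis.

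**Figure D1:**
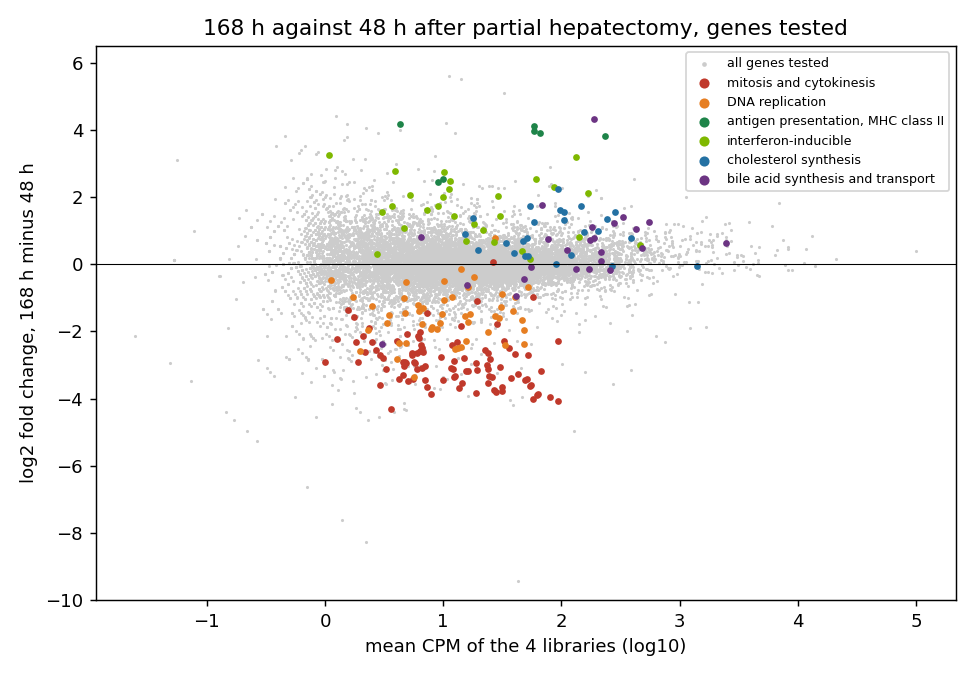
Log2 fold change of each gene tested (168 h minus 48 h, vertical axis) against its mean CPM over the 4 libraries (log10, horizontal axis), with 6 gene lists in colour. The genes of mitosis (red) and DNA replication (orange) lie below 0 with 1 exception each, and the MHC class II genes (dark green) and the interferon-inducible genes lie above 0.

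Genes of mitosis and cytokinesis were lower at 168 h as a nearly complete group. Of 97 tested, 93 were lower and none was higher, with a median of -2.95; 6.85% of all genes tested were lower. Their summed level was 3352 ± 264 CPM (SD, n = 2 pools) at 48 h and 450 ± 127 CPM at 168 h, a ratio of 7.44. Without 168 h pool 2 the number lower was 61, and without any other of the 4 pools it was 73 to 85. The 4 that did not pass were Cenpw, Cit, Fam64a and Pttg1, and Pttg1, which encodes securin, had a change of 0.07 (named after its value was seen).

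Plk1, a kinase needed for spindle assembly and exit from mitosis, was at 101 and 116 CPM in the 48 h pools and at 8 and 5.47 CPM in the 168 h pools. Its change was -4.01 ± 0.43 (adjusted p = 0.000255). Cdc20, the activator of the anaphase-promoting complex, was at 179 and 175 CPM and then at 14.2 and 6.67 CPM, a change of -4.08 ± 0.54 (adjusted p = 0.000537). The 2 pools of 48 h lay close together for both genes, and at 168 h pool 2 was the lower one. Ube2c, the ubiquitin-conjugating enzyme of the same complex, was at 110 and 123 CPM and then at 11 and 4.59 CPM, and Kif20a, a kinesin of cytokinesis, at 106 and 130 CPM and then at 12 and 4.15 CPM. Racgap1, which positions the cleavage furrow, was at 95.1 and 108 CPM and then at 9.78 and 6.56 CPM. In each of these genes both 168 h pools lay below both 48 h pools. Among all genes tested, 61% had pools that did not overlap between the times, in either direction. The smallest p-value in the list was that of Ube2s, a further enzyme of the anaphase-promoting complex, at 133 and 175 CPM and then 34.9 and 28.8 CPM (change -2.27 ± 0.20, adjusted p = 0.000195); its exons overlap Rpl28, and without strand the reads of overlapping genes cannot be told apart.

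The proliferation markers Mki67 and Top2a are members of the mitosis list and are part of its count above. Mki67, which encodes the Ki-67 antigen, was at 104 and 137 CPM at 48 h and at 16.6 and 9.84 CPM at 168 h (change -3.19 ± 0.52, adjusted p = 0.00174). Top2a, the topoisomerase that untangles sister chromatids, was at 83.6 and 98.7 CPM and then at 16.9 and 11.2 CPM (change -2.70 ± 0.35, adjusted p = 0.000494). Both 168 h pools lay above the sham library, at 7.11 CPM for Mki67 and 4.99 CPM for Top2a, and no test of this gap is given here. The summed level of the whole mitotic list was 265 CPM in that sham library and 540 and 361 CPM at 168 h.

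Most cyclins and CDK inhibitors were lower, but of the 4 CDK genes Cdk1 alone passed. Of 23 cyclins, kinases, inhibitors and their partners tested, 16 were lower and none was higher (median -1.56). The mitotic cyclins Ccnb1 and Ccnb2 changed by -3.95 ± 0.43 and -4.05 ± 0.50, the S and G2 phase cyclin Ccna2 by -3.09 ± 0.40, and Cdk1, their kinase, by -3.26 ± 0.34. Cdk2, which works with the E and A cyclins, did not pass (change -0.73 ± 0.25, adjusted p = 0.0704), nor did Cdk4 and Cdk6, the partners of the D cyclins (changes of -0.08 and -0.69). The cyclins of G1 were uneven. Ccnd1, which growth signals induce, was at 295 and 189 CPM and then at 78.9 and 75.7 CPM (change -1.65 ± 0.26, adjusted p = 0.00138), still above the 39.7 CPM of the sham library. Ccne1 was at 12.3 and 8.56 CPM and then at 2.45 and 3.83 CPM (change -1.73 ± 0.40, adjusted p = 0.0121). Ccne2, a gene of few reads whose exons overlap Ints8, was at 1.73 and 1.57 CPM and then at 0.222 and 0.219 CPM (change -2.83 ± 0.61, adjusted p = 0.00904). Ccnd2 and Ccnd3 did not pass, with changes of 0.31 and -0.10. Of the CDK inhibitors, Cdkn1a, Cdkn2c, Cdkn2d and Cdkn3 were lower, and Cdkn1b and Cdkn1c did not pass. Cdkn1a, which encodes p21, was at 202 and 239 CPM at 48 h and at 75.5 and 53.2 CPM at 168 h (change -1.77 ± 0.26, adjusted p = 0.000944). Cdkn3, a phosphatase that acts on CDKs, was at 26.6 and 34.2 CPM and then at 1.33 and 2.62 CPM. The differences in size between these cyclins were not tested.

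Genes of DNA replication were lower too, with a smaller median change than those of mitosis. Of 49 tested, 38 were lower and none was higher, with a median of -1.54 and a summed level of 1134 ± 118 CPM at 48 h against 434 ± 39.6 CPM at 168 h, a ratio of 2.61; the number lower was 24 without 168 h pool 2 and 26 to 32 without any other of the 4. Mcm5, a subunit of the replicative helicase, was at 61.5 and 51.1 CPM at 48 h and at 13.8 and 7.54 CPM at 168 h (change -2.40 ± 0.30, adjusted p = 0.000469). Rrm1 and Rrm2, the subunits of ribonucleotide reductase that supplies deoxynucleotides, changed by -1.96 ± 0.24 and -2.37 ± 0.41. Uhrf1, which carries DNA methylation through replication, was at 23.1 and 19.7 CPM and then at 3.56 and 3.94 CPM. Pcna, the sliding clamp, had the smallest change of the replication genes named here, from 59.1 and 47.8 CPM to 28.6 and 26.4 CPM (change -0.96 ± 0.20, adjusted p = 0.00736). The sham library held Pcna at 25.4 CPM, just under both 168 h pools.

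Factors that drive these programmes were lower in part. Of 20 E2F, RB and DREAM genes, 8 were lower and none was higher (median -0.89), and 2 of them were lower without 168 h pool 2. Foxm1, the activator of mitotic genes, was at 55.1 and 47.2 CPM at 48 h and at 7.45 and 3.39 CPM at 168 h (change -3.24 ± 0.37, adjusted p = 0.000294). E2f1, an activator of S phase genes, was at 19.5 and 13.4 CPM and then at 6.45 and 6.23 CPM (change -1.37 ± 0.23), and E2f8, a repressor of the same family, at 27.7 and 34.8 CPM and then at 15.8 and 11.7 CPM (change -1.19 ± 0.23). The pocket protein gene Rbl1 changed by -1.67 ± 0.30. Mybl2, which encodes B-MYB, did not pass (change -0.98, adjusted p = 0.493, named after its value was seen). The genes lower made up 40% of the list, against 6.85% of all genes tested. Activators and repressors of the cycle were both among the genes that fell.

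**Figure D2:**
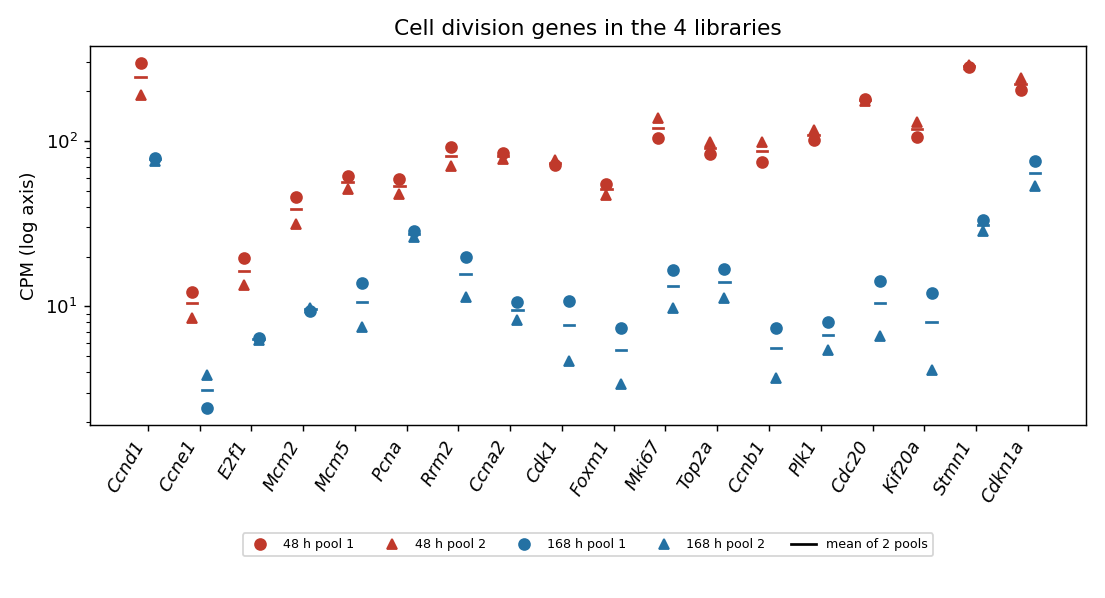
CPM (log axis) of 18 cell division genes in the 2 pools of 48 h (red) and the 2 of 168 h (blue), circles for pool 1, triangles for pool 2 and bars for the mean of 2 pools. No 168 h pool reaches a 48 h pool in any of the 18 genes, and the gap is wider from Ccna2 to Stmn1 than in Ccnd1 or Pcna. Among all genes tested, the pools did not overlap between the times for 61%, in either direction.

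Promoters of the genes that fell held the letters of the elements named above more often than promoters at large. RefSeq promoters (GRCm38.p6, 250 bases before to 50 after the start) matched 9756 of the 12199 genes, with 12384 promoters of 300 bases each, and both strands were searched. The CHR letters TTTGAA stood in 56 of 87 promoters (64.4%) of the mitosis list, in 13.3% of those of the DNA replication list and in 12.4% of all. CCAAT stood in 70.1% of the mitosis promoters and in 38% of all, and both motifs stood together in 50.6% against 4.93%. The E2F letters TTTGGCGC or TTTCGCGC stood in 12 of 45 promoters of the DNA replication list (26.7%), in 5.75% of the mitosis promoters and in 1.5% of all. Over all genes called lower, 20.8% of promoters held the CHR letters and 4.58% those of E2F, and over all called higher 14.4% and 0.787%. These matches describe letters and show no binding; none of the motifs contains another.

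The promoters of Arhgap11a, Racgap1 and Plk1 are shown because these were the mitotic genes with the smallest p-values that held both motifs, with TTTGAA and CCAAT (or their reverse complements) in capitals. Arhgap11a (chr2:113848612-113848911, minus strand) encodes a RhoA regulator of the cleavage furrow. Racgap1 (chr15:99651607-99651906, minus strand) and Plk1 (chr7:122159185-122159484, plus strand) are described above. In Plk1 the CCAAT box starts 14 bases before the start of transcription and TTTGAA lies after it, and in Racgap1 the box starts 12 bases before it. Each sequence runs 5′ to 3′ on the gene's strand.
Arhgap11a: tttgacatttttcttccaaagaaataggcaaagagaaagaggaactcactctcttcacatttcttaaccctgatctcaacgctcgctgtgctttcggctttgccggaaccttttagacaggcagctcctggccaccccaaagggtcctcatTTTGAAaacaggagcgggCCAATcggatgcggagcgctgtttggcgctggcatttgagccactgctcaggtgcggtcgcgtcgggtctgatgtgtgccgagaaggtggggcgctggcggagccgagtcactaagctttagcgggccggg
Racgap1: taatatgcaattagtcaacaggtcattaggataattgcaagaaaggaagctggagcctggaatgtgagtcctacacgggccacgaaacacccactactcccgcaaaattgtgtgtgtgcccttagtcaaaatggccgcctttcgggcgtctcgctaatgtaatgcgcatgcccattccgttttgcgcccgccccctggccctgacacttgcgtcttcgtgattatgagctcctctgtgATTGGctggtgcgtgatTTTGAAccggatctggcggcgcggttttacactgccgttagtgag
Plk1: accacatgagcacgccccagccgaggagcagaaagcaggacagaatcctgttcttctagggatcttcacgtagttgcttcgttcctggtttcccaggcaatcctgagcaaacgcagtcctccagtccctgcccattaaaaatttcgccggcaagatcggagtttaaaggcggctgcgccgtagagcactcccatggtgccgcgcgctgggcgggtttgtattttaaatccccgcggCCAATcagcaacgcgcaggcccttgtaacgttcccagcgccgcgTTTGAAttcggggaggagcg
The promoter of Mcm5 (chr8:75109259-75109558, plus strand) was added after its values had been seen, as the DNA replication gene with the smallest p-value that held E2F letters. They are in capitals, and the motif occurs there on both strands in overlap.
Mcm5: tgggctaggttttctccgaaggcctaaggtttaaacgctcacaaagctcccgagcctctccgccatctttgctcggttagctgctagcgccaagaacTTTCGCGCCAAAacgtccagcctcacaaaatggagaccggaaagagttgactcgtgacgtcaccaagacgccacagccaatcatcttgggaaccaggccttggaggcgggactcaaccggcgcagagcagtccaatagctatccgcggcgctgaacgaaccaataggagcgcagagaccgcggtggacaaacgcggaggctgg

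Genes for chromatin, tubulin and DNA repair went the same way. Of 16 chromatin genes of dividing cells 11 were lower (median -1.57), of 33 genes of DNA repair and checkpoints 19 (median -1.68), and of 13 tubulin and stathmin genes 7 were lower and Tuba4a was higher, by 0.44; with read totals alone Tuba4a was not called. Without 168 h pool 2 the numbers lower were 6, 10 and 6. Stmn1, which destabilises microtubules, was at 281 and 286 CPM at 48 h and at 33.2 and 28.5 CPM at 168 h (change -3.20 ± 0.33, adjusted p = 0.000255). H2afz, a histone variant, was at 96.7 and 98.3 CPM and then at 30.2 and 22.7 CPM (change -1.88 ± 0.20). Fanca, of the Fanconi anaemia repair pathway, was at 7.96 and 6.39 CPM and then at 1.45 and 1.31 CPM; its exons overlap Zfp276. Histone genes whose transcripts lack a poly(A) tail are poorly caught by oligo(dT) beads and were not among these lists.

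Genes that feed growth were lower in smaller numbers, beside 6.85% lower among all genes tested. Of 27 genes of nucleotide, one-carbon and polyamine synthesis 7 were lower and 1, Shmt1, was higher (median -0.41). Odc1, which starts polyamine synthesis, was at 154 and 165 CPM and then at 81.7 and 75.4 CPM (change -1.02 ± 0.20, adjusted p = 0.00473). Without 1 of the 4 pools 1 to 3 of these genes were lower, the fewest without 168 h pool 2. Of 33 ribosome biogenesis genes 5 were lower, with Utp20 and Nop58 among them, and none or 1 of them without 1 of the 4 pools. The 1 gene of that list that rose was Myc, a growth factor-responsive activator, at 8.54 and 5.02 CPM at 48 h and at 14.7 and 19.5 CPM at 168 h (change 1.33 ± 0.31, adjusted p = 0.0123). Of 75 ribosomal protein genes 1, Rpl3, was lower (median -0.13), and with read totals alone 11 were. That 1 gene was 1.33% of the list, below the share of all genes tested.

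A pair of fetal or injury-linked genes fell. Tnfrsf12a, the receptor for the cytokine TWEAK, was at 29.7 and 31.4 CPM at 48 h and at 4.67 and 3.17 CPM at 168 h (change -2.96 ± 0.43, adjusted p = 0.000912), against 3.24 CPM in the sham library. Afp, the fetal counterpart of albumin, was at 8.35 and 5.31 CPM and then at 1.89 and 1.64 CPM (change -1.94 ± 0.41, adjusted p = 0.0077). They were the only ones called of 9 oncofetal and progenitor genes tested, 22.2% of the list against 6.85% lower among all genes tested.

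Of the pathways known for halting growth, few TGF-beta and Hippo genes passed the test, while p53 targets passed more often than genes at large. Of 39 genes of TGF-beta, activin and BMP signalling 1, Id2, was higher and 2, Inhbb among them, were lower, with a median of 0.02, the same as that of all genes. Id2 was not called with read totals alone. Inhbb, an activin subunit, was at 6.43 and 15.4 CPM at 48 h and at 3.45 and 2.84 CPM at 168 h (change -1.79 ± 0.49, adjusted p = 0.0291). Inhbb was not called without 48 h pool 2 or without either 168 h pool. Tgfb1 itself was at 20.1 and 21.1 CPM and then at 23.6 and 26 CPM, a change of 0.27 ± 0.27 that did not pass (adjusted p = 0.573). Of 20 Hippo and YAP genes Axl, a receptor kinase, was 2-fold higher (adjusted p = 0.00502), and Tead1, the DNA-binding partner of YAP, was lower by a change of -1.16 ± 0.31. Tead1 was at 15.1 CPM in 48 h pool 1, 36.2 CPM in 48 h pool 2 and 11.7 and 11.3 CPM at 168 h. Of 22 p53 target genes 5 were lower, Cdkn1a and the mitotic Gtse1 among them, and Fas, a death receptor, was higher by 0.65 ± 0.17. Neither read totals alone nor DESeq2 called Fas. Calls made up 7.69% of the TGF-beta, activin and BMP list, 10% of the Hippo and YAP list and 27.3% of the p53 list. Among all genes tested the share was 13.8%. None of 21 growth factor and receptor genes passed the test (median 0.19).

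The growth hormone axis had 4 of 18 genes higher and 1, Igf2r, lower, 27.8% of the list against 13.8% of all genes tested. With only the 4 libraries in the fit 9 were higher. Ghr, the growth hormone receptor, was at 210 and 174 CPM at 48 h and at 355 and 352 CPM at 168 h (change 0.88 ± 0.25, adjusted p = 0.0327), and was not called with read totals alone or without any 1 of the 4 pools. Igfbp3, the main carrier of IGF1 in blood, was at 5.57 and 9.05 CPM and then at 41.7 and 28.8 CPM (change 2.27 ± 0.32, adjusted p = 0.000713). Igf1 was at 455 and 398 CPM and then at 613 and 559 CPM, which did not pass (change 0.46 ± 0.21, adjusted p = 0.165). Among 22 male-biased liver genes, which pulses of growth hormone maintain, 3 were higher: Hsd3b5, Nudt7 and Cyp2d9. That was 13.6% of the list, against 6.94% higher among all genes tested. With only the 4 libraries in the fit, 11 of the 22 were higher and 1 was lower. Hsd3b5, a steroid dehydrogenase, was at 27.3 and 24.9 CPM and then at 156 and 117 CPM (change 2.38 ± 0.55, adjusted p = 0.012), below the 258 CPM of the sham library. Mup20, a major urinary protein of a family whose members share reads, was at 2389 and 1153 CPM and then at 2029 and 1867 CPM, against 11990 CPM in the sham library.

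Bile acid synthesis held the largest rise of a metabolic gene. Cyp8b1, the 12-alpha-hydroxylase that directs synthesis to cholic acid (chr9:121914356-121916305), was at 12.1 and 24 CPM at 48 h and at 346 and 379 CPM at 168 h (change 4.33 ± 0.86, adjusted p = 0.00558). Its level in the sham library was 378 CPM. It was called without either 168 h pool and without 48 h pool 2, and not without 48 h pool 1 (change 3.90, adjusted p = 0.0653). Of 24 genes of bile acid synthesis and transport 7 were higher and 2, Cyp39a1 and Slc51b, were lower (median 0.57), and without 1 of the 4 pools 4 to 6 were higher and none or 1 was lower. Cyp27a1, which opens the acidic pathway, was at 193 and 173 CPM and then at 458 and 507 CPM (change 1.40 ± 0.23, adjusted p = 0.0016). Slc10a1, the uptake carrier NTCP, was at 268 and 293 CPM and then at 605 and 554 CPM (change 1.05 ± 0.22). Cyp7a1, the rate-limiting enzyme of the classical pathway, was at 20.8 and 40.9 CPM and then at 113 and 97.2 CPM. It did not pass (change 1.77 ± 0.65, adjusted p = 0.0939). Its pools did not overlap between the times, as was so for 61% of all genes tested. Calls made up 37.5% of the bile acid list, against 13.8% of all genes tested.

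Cholesterol synthesis was higher at 168 h along much of the pathway. Of 25 genes 13 were higher and none was lower (median 0.90), against 6.94% higher among all genes tested, and their summed level was 3285 ± 153 CPM at 48 h and 4985 ± 178 CPM at 168 h. Idi1, which makes the isoprene unit dimethylallyl diphosphate, was at 32.9 and 32.5 CPM and then at 153 and 154 CPM (change 2.23 ± 0.38, adjusted p = 0.00232). Cyp51, the lanosterol demethylase, was at 66.8 and 68.9 CPM and then at 224 and 229 CPM (change 1.74 ± 0.28), and Fdps, the farnesyl diphosphate synthase, at 160 and 128 CPM and then at 403 and 441 CPM (change 1.55 ± 0.23). The pools of a group lay within a few percent of each other for Idi1 and Cyp51. Sqle, the squalene epoxidase, was at 30.3 and 39.6 CPM and then at 79.3 and 87 CPM (change 1.25 ± 0.31). Without 1 of the 4 pools 5 to 9 of the genes were higher, the fewest without 48 h pool 2. The levels at 168 h were no maximum: the summed level at 72 h was 6417 and 4559 CPM.

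The sterol element letters TCACNCCAC stood in 1 of 20 promoters of the cholesterol list (5%) and in 1.2% of all, and CCAAT stood in 16 of the 20. The promoter that held the element was that of Hmgcs1 (chr13:119690101-119690400, plus strand), the synthase that makes HMG-CoA, shown with the element in capitals, 137 bases before the start. Hmgcs1 was at 138 and 133 CPM at 48 h and at 328 and 368 CPM at 168 h (change 1.36 ± 0.31, adjusted p = 0.0118).
Hmgcs1: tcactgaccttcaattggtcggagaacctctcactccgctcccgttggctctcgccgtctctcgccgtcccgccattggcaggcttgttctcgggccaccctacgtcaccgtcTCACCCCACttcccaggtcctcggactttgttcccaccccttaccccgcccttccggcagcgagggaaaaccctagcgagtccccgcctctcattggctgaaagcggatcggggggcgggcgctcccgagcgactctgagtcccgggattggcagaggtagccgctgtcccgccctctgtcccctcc

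Among the genes called higher, the gain in mean CPM was largest for Scd1 of fatty acid synthesis. Scd1, the stearoyl-CoA desaturase, was at 3743 and 2362 CPM at 48 h and at 11895 and 9806 CPM at 168 h, a gain of 7798 CPM in the mean (change 1.83 ± 0.35, adjusted p = 0.00461), and it was not called without 48 h pool 2. Of 29 genes of fatty acid and triglyceride synthesis 7 were higher and 1, Dgat1, was lower. These calls were 27.6% of the list, against 13.8% of all genes tested. Acss2, which makes acetyl-CoA from acetate, changed by 1.98 ± 0.32, and Me1, which supplies NADPH, by 1.48 ± 0.19. Fasn differed more between the 48 h pools, at 918 and 246 CPM, than between the groups, at 699 and 593 CPM at 168 h, and did not pass. Of 36 genes of fatty acid oxidation and PPARalpha targets 3 were higher and 4 lower (median -0.08). Together these calls were 19.4% of the list, against 13.8% of all genes tested. The 3 were Acaa1b, Eci1 and Decr2, with changes of 1.27, 0.50 and 0.60. The 4 that fell were Acot1, Acot2 and Acot3, acyl-CoA thioesterases, and Angptl4, an inhibitor of lipoprotein lipase. Acot1 was at 28.4 and 31.1 CPM and then at 7.56 and 3.83 CPM (change -2.38 ± 0.53, adjusted p = 0.0102); these thioesterase genes are near copies of each other, so the split of reads between them is uncertain.

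Genes of sugar metabolism changed in both directions. Of 24 glycolysis genes 5 were higher and 2 lower, and with read totals alone 2 were higher and 4 lower. Calls of the main fit made up 29.2% of this list, against 13.8% of all genes tested. Pklr, the liver pyruvate kinase, was at 65.1 and 53.8 CPM at 48 h and at 179 and 163 CPM at 168 h (change 1.53 ± 0.23, adjusted p = 0.0012), and Aldoc, an aldolase, at 3.36 and 3.93 CPM and then at 17.8 and 22.3 CPM (change 2.45 ± 0.32). Ldha, a lactate dehydrogenase subunit, went the other way, from 1414 and 1913 CPM to 741 and 780 CPM (change -1.13 ± 0.17, adjusted p = 0.00101). So did Slc2a1, the glucose carrier GLUT1, with a change of -0.91 ± 0.25, while Slc2a2, the liver carrier GLUT2, was higher by 0.70 ± 0.19, a call not made with read totals alone. In gluconeogenesis, 2 of 14 genes were higher and 1, Pck2, was lower; G6pc, the glucose-6-phosphatase, was higher by 1.02 ± 0.29 but uneven, at 753 and 378 CPM in the 168 h pools. With read totals alone neither gluconeogenic gene was called higher. Calls of the main fit made up 21.4% of the gluconeogenesis list.

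Genes for detoxification and amino acid breakdown were higher in part. Calls made up 39.5% of the conjugation enzymes, 18.9% of the cytochromes P450 and 44.8% of the urea cycle and amino acid genes. Among all genes tested the share was 13.8%. Of 38 conjugation enzymes 14 were higher and 1 lower (median 0.55), of 37 cytochromes P450 of families 1 to 3 6 were higher and 1 lower (median 0.30), and of 29 genes of the urea cycle and amino acid breakdown 11 were higher and 2 lower (median 0.37). Without 1 of the 4 pools these numbers higher were 4 to 7, 3 to 4 and 2 to 6, and with read totals alone 7, 5 and 7. Mgst1, a membrane-bound glutathione transferase, was at 1416 and 1455 CPM and then at 2651 and 2748 CPM (change 0.91 ± 0.18, adjusted p = 0.00605). Cyp2f2, a periportal P450, was at 1011 and 806 CPM and then at 2365 and 2065 CPM (change 1.29 ± 0.21, adjusted p = 0.00156). Otc, which makes citrulline, was at 195 and 169 CPM and then at 372 and 355 CPM (2-fold higher, adjusted p = 0.00628), and Bhmt, which remethylates homocysteine, at 1443 and 1462 CPM and then at 2965 and 3737 CPM (change 1.21 ± 0.22). Cyp2c55 fell, from 58.4 and 44.2 CPM to 16.5 and 16.9 CPM. Members of the Cyp2c, Ugt1a and Gst families share sequence, and the Ugt1a genes share exons, so reads may be split between them. Cat, the peroxisomal catalase, gained 3184 CPM in the mean, from 2336 and 2210 CPM to 5541 and 5373 CPM (change 1.26 ± 0.17, adjusted p = 0.00059).

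Secreted plasma proteins were higher in part as well. Calls made up 44% of the carriers and apolipoproteins and 30.8% of the coagulation and complement genes, against 13.8% of all genes tested. Of 25 carriers and apolipoproteins 9 were higher and 2 lower, and of 39 coagulation and complement genes 12 were higher and none lower (median 0.38). The coagulation and complement count did not hold when a pool was left out: it was none without 168 h pool 2, 1 without either 48 h pool, 5 without 168 h pool 1 and 6 with read totals alone. Apoe, a ligand for lipoprotein receptors, was at 9398 and 9545 CPM and then at 16786 and 16966 CPM (change 0.83 ± 0.17, adjusted p = 0.00645), and Apoa2, a protein of high-density lipoprotein, at 3957 and 3695 CPM and then at 7992 and 8758 CPM (change 1.13 ± 0.18). Apoc2, the activator of lipoprotein lipase, fell from 509 and 502 CPM to 199 and 226 CPM (change -1.25 ± 0.17), and Apoa4 fell by 1.99 on the log2 scale. Alb was at 84801 and 89432 CPM and then at 130056 and 99251 CPM, which did not pass (change 0.40 ± 0.21, adjusted p = 0.249).

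Among 27 hepatocyte transcription factors, 2 were higher and none lower, and 2 were lower with read totals alone or with only the 4 libraries in the fit. The share higher, 7.41%, was near the 6.94% of all genes tested. Cebpa, a factor of hepatocyte differentiation known to restrain division, was at 117 and 121 CPM at 48 h and at 253 and 228 CPM at 168 h (change 1.02 ± 0.19, adjusted p = 0.00412), and it was called without any 1 of the 4 pools. Nr1h4, the bile acid receptor FXR, was at 54.9 and 50.2 CPM and then at 95.6 and 94.8 CPM (change 0.86 ± 0.20, adjusted p = 0.0135). Hnf4a, at 799 and 911 CPM and then at 818 and 738 CPM, did not pass. Of 74 genes of oxidative phosphorylation 7 were higher and 1 lower (median 0.24), but none was higher with read totals alone and at most 2 were without 1 of the 4 pools. Calls in either direction made up 10.8% of this list, against 13.8% of all genes tested. Cox6b2, the 1 that fell, is the testis form of a cytochrome oxidase subunit and was at 3.36 and 4.82 CPM and then at 0.556 and 0.219 CPM. In the core clock list 2 of 18 genes were lower, Per1 and Gm129 (also called Ciart), and of 16 pericentral genes 2, Lect2 and Oat, were lower. These were 11.1% and 12.5% of the lists, against 6.85% lower among all genes tested.

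The acute phase list differed widely between the 48 h pools, with summed levels of 45429 CPM in pool 1 and 76096 CPM in pool 2. At 168 h the sums were 47935 and 55864 CPM. Of 30 genes 6 were lower at 168 h: A2m, Saa3, Mt1, Mt2, Serpina3n and Serpina3m. These were 20% of the list, against 6.85% lower among all genes tested. Without 48 h pool 2, or without 168 h pool 1, none was called lower, and without 48 h pool 1 the number was 10. Saa3, a serum amyloid, was at 26.9 and 469 CPM at 48 h and at 5 and 10.8 CPM at 168 h; its change was -4.97 ± 1.07 (adjusted p = 0.00887) and was -1.78 without 48 h pool 2 (adjusted p = 0.192). A2m, a protease inhibitor, was at 1.92 and 169 CPM and then at 0.222 and 0 CPM, which were 1738 reads at 48 h and 2 reads at 168 h, a ratio of 885 with an exact 95% counting interval from 245 to 7313. Of those reads, 1718 came from 48 h pool 2; without it the ratio was 20.7 (interval from 5.02 to 182), on 20 reads against 2, and A2m was not called (adjusted p = 0.165). Mt2, a metallothionein, was at 226 and 781 CPM and then at 16.2 and 68.7 CPM. In all these genes 48 h pool 2 was the highest of the 4 libraries. It was also the highest for neutrophil genes, whose summed level was 16 and 75.9 CPM at 48 h and 12.8 and 22.5 CPM at 168 h; Ngp was at 0 CPM in 48 h pool 1 and 11.8 CPM in pool 2, and none of 10 neutrophil genes passed. The part of neutrophils in the acute phase values was not tested.

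MHC class II genes, which present antigen to helper T cells, were all higher at 168 h. All 7 tested passed, with a median of 3.91, and 5 passed without 168 h pool 2 or without either 48 h pool. H2-Eb1, a beta chain (chr17:34305867-34316674), was at 6.43 and 6.3 CPM at 48 h and at 81.6 and 139 CPM at 168 h (change 4.11 ± 0.41, adjusted p = 0.000255). H2-Aa, an alpha chain, was at 7.48 and 8.85 CPM and then at 96.2 and 150 CPM, and Cd74, the invariant chain, at 35 and 27.2 CPM and then at 341 and 539 CPM (change 3.82 ± 0.42). Ciita, the master activator of these genes, was at 0.192 and 0.689 CPM and then at 5.34 and 10.9 CPM (change 4.17 ± 0.70, adjusted p = 0.00219). Pool 2 was the higher of the 168 h pools in each. The summed level was 59 ± 6.29 CPM at 48 h and 825 ± 281 CPM at 168 h, a ratio of 14, against 126 CPM in the sham library and 169 and 458 CPM at 120 h.

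Markers of macrophages and lymphocytes moved with these genes. Of 22 Kupffer cell and macrophage markers 15 were higher and none lower (median 1.36), with summed levels of 893 and 1009 CPM at 48 h and 1890 and 2369 CPM at 168 h. Clec4f, a lectin that marks Kupffer cells, was at 112 and 87.2 CPM and then at 189 and 247 CPM (change 1.13 ± 0.16, adjusted p = 0.00085), and Vsig4, a complement receptor of the same cells, at 32.3 and 25.5 CPM and then at 75.9 and 74.7 CPM (change 1.38 ± 0.17). Emr1, which encodes F4/80, was higher by 1.73 ± 0.29. The number higher was 6 without 168 h pool 2 and 7 to 13 without any other of the 4. Of 10 lymphocyte genes tested 3 were higher, with summed levels of 14.3 and 17.3 CPM and then 47.5 and 56.9 CPM; Gzma and Gzmb, granzymes of cytotoxic cells, reached 2.84 and 3.72 CPM at most. In bulk tissue a larger number of such cells and more RNA per cell cannot be told apart. Their part in the MHC class II values was not tested. Of 13 stellate cell markers 2 were higher, of 18 endothelial markers 3, and of 8 cholangiocyte markers none passed. The shares higher were 15.4% of the stellate and 16.7% of the endothelial markers, against 6.94% of all genes tested. For macrophage and lymphocyte markers they were 68.2% and 30%. Of 24 extracellular matrix genes 2, Col14a1 and Dcn, were higher and Mmp14, a matrix protease, was lower. Together these calls were 12.5% of the list, against 13.8% of all genes tested.

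Interferon-inducible genes were higher at 168 h in both pools, and far more so in pool 2. Of 28 tested, 17 were higher and none lower (median 1.67). Without 168 h pool 2 the number was 3, without 48 h pool 1 it was 5, without 48 h pool 2 it was 4, and without 168 h pool 1 it was 18. Tgtp1, a T-cell-specific GTPase gene with a near copy beside it, was at 0.864 and 2.85 CPM at 48 h and at 13.9 and 113 CPM at 168 h (change 5.09 ± 1.25, adjusted p = 0.0169), and without pool 2 the change was 2.90 (adjusted p = 0.212). Igtp was at 21 and 31.6 CPM and then at 83.1 and 395 CPM; without pool 2 its change was 1.66 (adjusted p = 0.266). Irf7, a factor that amplifies the interferon response, was at 19.8 and 16 CPM and then at 63.8 and 144 CPM (change 2.54 ± 0.41, adjusted p = 0.00174). A similar split stood at 120 h, where Igtp was at 59.5 CPM in pool 1 and 438 CPM in pool 2. Levels at 48 h were below the sham library for several of these genes, with Igtp there at 38.7 CPM and Ifit1 at 18.1 CPM against 2.88 and 2.36 CPM at 48 h.

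**Figure D3:**
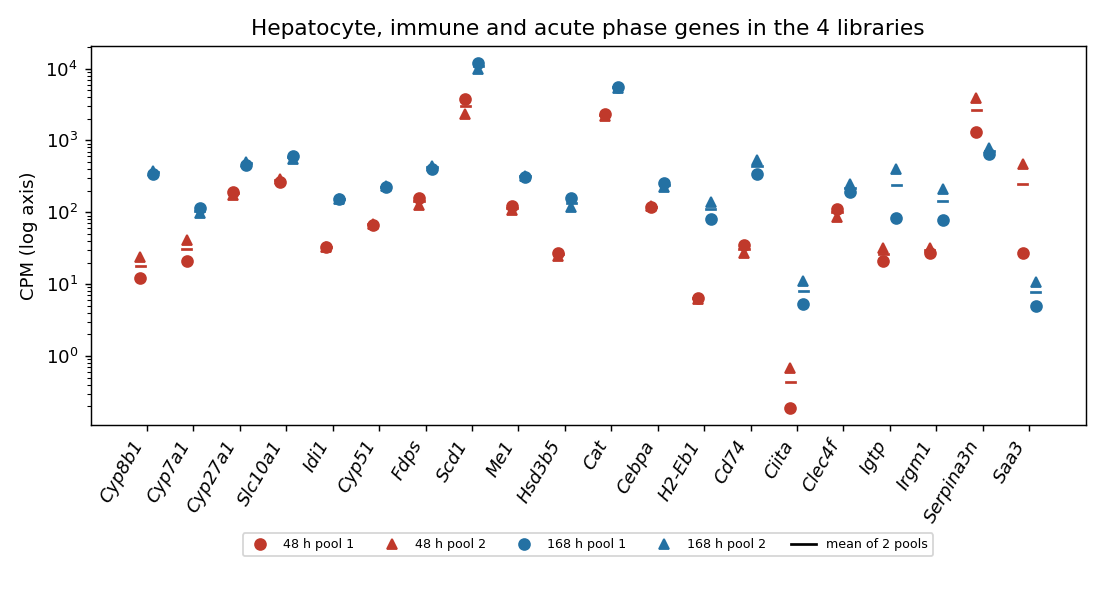
CPM (log axis) of 20 hepatocyte, immune and acute phase genes in the 2 pools of 48 h (red) and the 2 of 168 h (blue), circles for pool 1, triangles for pool 2 and bars for the mean of 2 pools. The pools of a group lie close for Cyp51 or Cat and far apart for Igtp at 168 h (83.1 and 395 CPM) and Saa3 at 48 h (26.9 and 469 CPM).

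Set in the full course, 48 h was the time of the highest mitotic level, and both 168 h pools lay above every library before 24 h and below those of 24 h. The summed mitotic level was 265 CPM in the sham library, 303 CPM at 0.5 h, 220 and 210 CPM at 2 h, 274 and 341 CPM at 4 h, 592 and 659 CPM at 24 h, 3165 and 3539 CPM at 48 h, 1232 and 2168 CPM at 72 h, 646 and 330 CPM at 120 h and 540 and 361 CPM at 168 h. DNA replication genes were nearer to their 48 h level at 24 h, with 820 and 875 CPM there and 1218 and 1051 CPM at 48 h. Bile acid genes were lowest at 48 h, with 5215 and 4890 CPM, and were at 8689 and 7974 CPM at 168 h against 11297 CPM in the sham library. MHC class II genes had their highest summed level of the 16 complete libraries in the 168 h pools, 626 and 1024 CPM. These sums describe the course and were not tested.

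**Figure D4:**
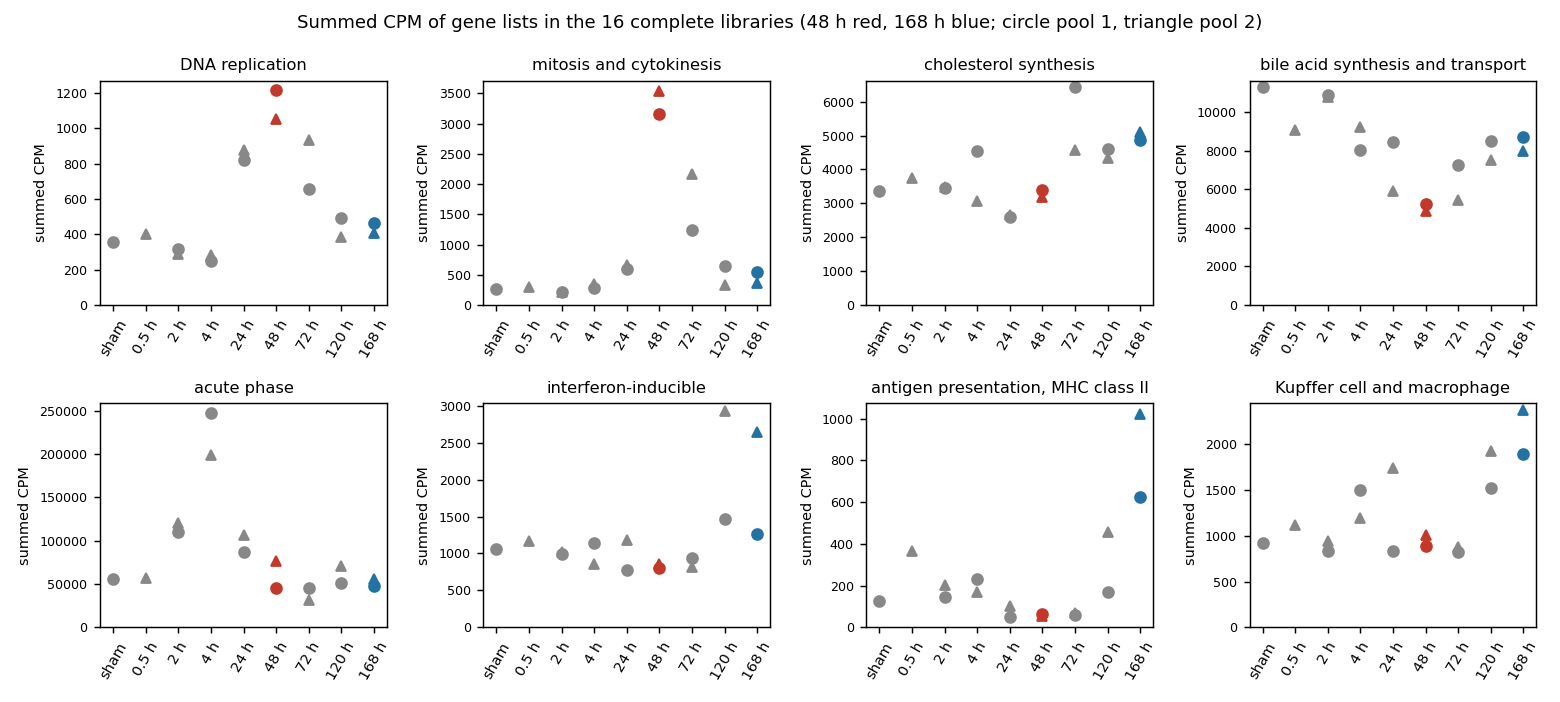
Summed CPM of 8 gene lists in the 16 complete libraries from sham to 168 h, with 48 h in red, 168 h in blue, circles for pool 1 and triangles for pool 2. Mitosis peaks at 48 h (3165 and 3539 CPM), bile acid genes are lowest there, and MHC class II genes are highest at 168 h.

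**Figure D5:**
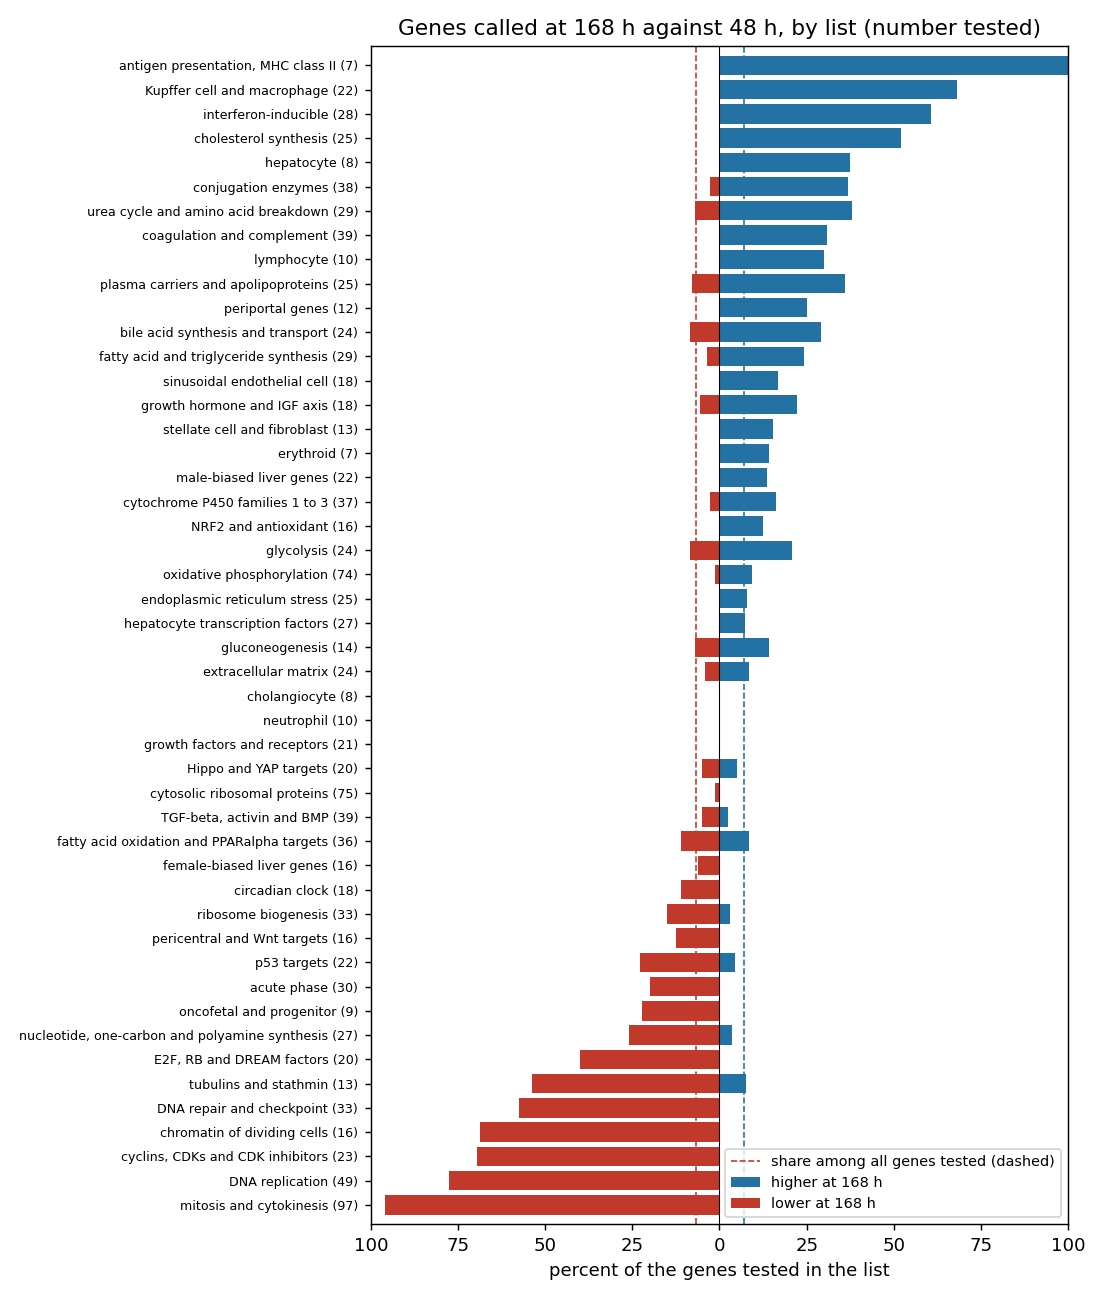
Percent of the genes tested in each of 48 lists that were higher (blue, right) or lower (red, left) at 168 h than at 48 h, with the number tested in brackets and the shares among all genes tested dashed (6.94% higher, 6.85% lower). The lists of cell division stand at the bottom and those of MHC class II, macrophages, interferon and cholesterol at the top.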

How the data were processed

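Each deposited table covered 1 library. Its read counts are the reads mapped uniquely to a gene, per the file headers, and its RPKM values scale those counts by gene length and library total, per the file headers. Per the submitters' processing notes the genome was mm10. The sources used here name no aligner, counting tool or strand. Identifiers of 16985 of 17180 genes matched RefSeq, which gave names and positions. Rows with no name took up to 0.0326% of a library.

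The counts went into edgeR 4.0.16 (R 4.3.3) as deposited: the quasi-likelihood F test with TMM factors, in 1 fit of the 16 complete libraries, with 7 residual degrees of freedom and a biological coefficient of variation of 0.166. The contrast was 168 h minus 48 h, with Benjamini-Hochberg adjustment over 12199 genes and a threshold of 0.05. Genes needed 15 reads in total and, in at least 2 libraries, a CPM worth 10 reads of the median library. An SE here is the size of the log2 fold change over the square root of F. In counts simulated for this contrast (11939 genes, dispersion 0.02), 72% of 2-fold and 93% of 4-fold changes were recovered, and 8 of 173 calls were false. The simulation gave all genes the same dispersion, below the fitted common one, and held no pool that stood apart from its partner. Its rates may therefore be too favourable for the real libraries.

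The comparison and the 48 gene lists were chosen with earlier results of these data known. Genes named are the 12 largest rises and falls with a mean of at least 10 CPM, up to 5 of each list by p-value (all where 8 or fewer were tested) and a fixed list of markers; others named are called members of a list with few calls, or are said to be added. Some genes that the rule names are left out. Alternatives were DESeq2 1.42.0, RLE factors, read totals alone, limma-trend (limma 3.58.1) on log2 CPM, on log2(RPKM + 1) and on log2(RPKM + 0.1), no filter, the 4 libraries alone, all 18 libraries, a replicate block and leaving out each library. Figures were drawn with matplotlib 3.10.9. The counting interval of A2m covers counting error only, as PCR copies are not separate molecules.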

Additional observations from a re-analysis of the deposited data

How the results depend on the processing

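The counts of 847 higher and 836 lower genes stayed within 1.5 times with DESeq2, RLE factors, limma-trend on log2 CPM, no filter, only the 4 libraries, and without any 1 library of another time. They moved further with read totals alone (468 and 1474), with limma-trend on log2(RPKM + 1) (464 and 1513) and on log2(RPKM + 0.1) (450 and 1438), which are also scaled by totals, and with all 18 libraries where genes not listed were taken as 0 (352 and 178). Leaving out 1 library gave 178 to 915 higher and 250 to 954 lower genes: 487 and 459 without 168 h pool 1, 196 and 250 without 168 h pool 2, 294 and 490 without 48 h pool 1, and 178 and 357 without 48 h pool 2. A group of 1 pool was then assumed to vary like the other groups. No named gene reversed its direction with its call under any of these alternatives. The replicate block gave 860 higher and 821 lower. The replicate numbers were not used to pair the pools in the main fit. Deviations of same-numbered pools at 48 and 168 h had a correlation of 0.06, and over 21 pairs of groups it ran from -0.36 to 0.29. With 2 pools per group, these correlations do not settle whether same-numbered pools were handled together. An unadjusted p below 0.05 was found for 3388 genes. With only the 4 libraries, list counts higher moved from 7 to 12 for bile acids, 6 to 12 for cytochromes P450, 12 to 20 for coagulation and complement and 3 to 6 for fatty acid oxidation, and counts lower from 4 to 9 for fatty acid oxidation, 6 to 10 for the acute phase and 5 to 10 for ribosome biogenesis. With read totals alone, 11 nucleotide synthesis, 12 ribosome biogenesis and 10 acute phase genes were lower, and 1 fatty acid oxidation gene was higher. With DESeq2, 2 genes of oxidative phosphorylation were higher. Among the calls lost for genes given with values, beside those named in the results, were Slc2a1 without each of the 4 pools; Apoe, Tead1, Slc2a2, Odc1, Pcna, Rbl1, E2f8, Afp, Acot1, Ccne1, Ccne2, Mgst1, Myc, Nr1h4, Sqle and Cox6b2 without 168 h pool 2; Ccne1, Ccne2, G6pc, Hsd3b5, Nr1h4, Slc2a2, Sqle and Tead1 without 168 h pool 1; Afp, Ccne1, G6pc, Hsd3b5, Mgst1, Nr1h4, Pcna, Slc10a1 and Sqle without 48 h pool 1; and Acot1, Axl, E2f8, G6pc, Hsd3b5, Mgst1, Myc, Nr1h4, Otc, Slc2a2, Sqle and Tead1 without 48 h pool 2.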
